A study of Mus musculus with 6 samples.

Results

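Matricellular proteins are secreted into the matrix around cells, where they bind collagens, growth factors and surface receptors rather than serving mainly as scaffold. The genes described here are 7 of that class, with the adhesive matrix protein fibronectin: the thrombospondins *Thbs1*, *Thbs2* and *Thbs3*, tenascin C (*Tnc*), periostin (*Postn*), osteonectin (*Sparc*), osteopontin (*Spp1*) and fibronectin (*Fn1*). They were chosen by name as this protein class, and are 8 of the 16279 genes listed for mouse embryonic stem cells (mESCs), for cardiac precursor cell cultures (CPCCs), or for both. The CPCC table lists all 8, and the mESC table lists 4 of them (*Fn1*, *Sparc*, *Spp1* and *Thbs3*).

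Fibronectin is assembled into fibrils by cells that hold it through integrins, and collagens and many other matrix proteins are laid down on those fibrils. Thrombospondins, tenascin C and periostin change how firmly cells attach to such a matrix, and thrombospondin 1 can also release TGF-beta from its latent complex. In the developing heart these genes are known above all from the cushions and valves, the epicardium, fibroblasts and the vessel wall, while most are low in muscle cells.

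Bulk RNA-seq was available for 3 libraries of mESCs (S01, S02 and S03) and 3 of CPCCs (S04, S05 and S06), all male and all from an F1 cross of C57BL/6 (C57BL/6J mothers, by the methods) with CAST/EiJ. The mESCs were clones grown from single cells of lines from 3 blastocysts, derived on feeders and then kept without feeders in 2i medium with LIF and serum. The CPCCs were made from those clones through hanging drops and embryoid bodies in medium with ascorbic acid, then plated on gelatin with EGF and Fgf2 and harvested at the fourth passage as a mixed culture, with no sort for a cell type. The groups thus differ in cell state and in medium at once. Values are the authors' estimated read counts per gene. CPM denotes these counts per 1000000 after normalization, and log2 fold changes are CPCC over mESC. Library sizes were taken over the 13001 genes listed for both cell types, and TMM factors over the 12471 of them that were tested. A gene with fewer than 10 counts over the 3 libraries of a cell type is missing from that table, and its fold is given only as a bound against 3 counts per library. Since not all counts are whole, a missing gene can hold slightly more than 3 per library, so these bounds are approximate.

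The labels were checked against marker genes. The 7 pluripotency markers tested were all lower in CPCCs, where their summed level fell from between 3570 and 3764 per 1000000 counts in mESCs to between 93.7 and 189. The 8 cardiac precursor markers summed to between 38.7 and 120 per 1000000 in CPCCs and to between 3.97 and 4.63 in mESCs. Of these 8, *Tnnt2* was the 1 that passed the test, *Gata4* and *Isl1* did not pass, *Nkx2-5*, *Mef2c*, *Hand1* and *Hand2* are listed for CPCCs alone, and *Tbx5* for mESCs alone. In the same CPCC libraries 5 smooth muscle markers summed to between 6116 and 9738 per 1000000 and 8 mesenchyme or fibroblast markers to between 6034 and 8762 per 1000000, against at most 1.31 and 18.5 in mESCs. In bulk RNA, more cells of a type and more RNA per cell cannot be told apart. The shallowest library was an mESC library of 6442639 counts, and the deepest, S04, held 11436062.

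Of the 4 genes that both cell types list, 3 were higher in CPCCs (*Fn1*, *Sparc* and *Thbs3*) and 0 were lower, by edgeR's quasi-likelihood test with a Benjamini-Hochberg adjusted p under 0.05. Of all 12471 genes tested, 31.7% were higher and 29.7% were lower, so a call in itself is common in this comparison. The 3 CPCC libraries all lay above the 3 mESC libraries for the same 3 genes and below them for none of the 4, against 35.3% and 34.5% of all genes tested. The other 4 genes, *Thbs1*, *Thbs2*, *Tnc* and *Postn*, are listed for CPCCs alone. Of all 16279 genes, 2518 are listed for CPCCs alone and 760 for mESCs alone.

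Fibronectin (*Fn1*, chromosome 1, 71585473 to 71653235, minus strand, GRCm38) carries the integrin-binding site through which cells pull it into fibrils. Taken in the order S01 to S03, the mESC libraries gave it 6068, 6722 and 7762 counts, which is 937, 989 and 1135 CPM. The CPCC libraries, taken from S04 to S06, gave it 44053, 28432 and 20219 counts, or 4379, 3448 and 2317 CPM. The lowest CPCC library thus stood above the highest mESC library, and the CPCC libraries were spread more widely. The means were 1020 ± 103 CPM in mESCs and 3381 ± 1033 CPM in CPCCs (SD, n = 3 each). This is a 3.31-fold rise, or 1.73 on the log2 scale (SE 0.23, 95% interval 1.22 to 2.24, adjusted p = 0.000204 by edgeR).

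*Sparc* (chromosome 11, 55394159 to 55420081, minus strand) encodes osteonectin, a calcium-binding glycoprotein that binds collagen and is abundant in cells that build matrix. Its mESC libraries held 1102, 1168 and 1038 CPM, and its CPCC libraries 8964, 7352 and 5612 CPM. These came from 7136, 7940 and 7094 counts in mESCs and 90177, 60631 and 48970 in CPCCs. The mESC values lay close together, and each CPCC value was several times higher. The mean rose from 1103 ± 65.2 to 7309 ± 1676 CPM (SD, n = 3 each), which is 6.63-fold, or 2.73 on the log2 scale (SE 0.19, 95% interval 2.30 to 3.16, adjusted p = 6.63e-06 by edgeR).

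*Thbs3* (chromosome 3, 89215180 to 89226842, plus strand) belongs to the thrombospondins that form pentamers, with *Thbs4* and *Comp*. Per length of transcript it was the lowest of the 8 genes in CPCCs. Its counts were 18, 21 and 7 in mESCs (2.78, 3.09 and 1.02 CPM) and 234, 352 and 295 in CPCCs (23.3, 42.7 and 33.8 CPM). All 3 CPCC libraries were well above all 3 mESC libraries, although S03 rested on few counts. The means were 2.30 ± 1.11 and 33.3 ± 9.72 CPM (SD, n = 3 each), a 14.4-fold rise, or 3.85 on the log2 scale (SE 0.42, 95% interval 2.89 to 4.80, adjusted p = 7.59e-05 by edgeR). *Thbs3* shares 318 exonic bases with *Mtx1* on the other strand, and the sources used here do not say whether the counting used strand, so reads of the pair may not be separated. *Mtx1* had 837, 804 and 728 counts in mESCs and 503, 589 and 741 in CPCCs. For *Fn1*, *Sparc* and *Thbs3* taken singly, the exact two-sided permutation test gave p = 0.1, the smallest that 3 against 3 libraries allow.

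*Spp1* (chromosome 5, 104435111 to 104441054, plus strand) encodes osteopontin, a phosphorylated ligand of integrins and of *Cd44* that bone cells and macrophages secrete in quantity. It was the only member with a lower mean in CPCCs, and the difference did not pass the test. The mESC libraries held 8351, 7830 and 10435 counts, or 1290, 1152 and 1526 CPM, and the CPCC libraries 12978, 5837 and 3901 counts, or 1290, 708 and 447 CPM. S04 lay inside the mESC range, while S05 and S06 lay below it. The means were 1323 ± 189 CPM in mESCs and 815 ± 432 CPM in CPCCs (SD, n = 3 each), a log2 difference of -0.70 (SE 0.33, 95% interval -1.45 to 0.05, adjusted p = 0.0944 by edgeR; exact two-sided permutation p = 0.3). Without S04 the log2 difference came to -1.18 (SE 0.19, adjusted p = 0.000175 by edgeR), which passed the test, while 30.4% of all 12598 genes then tested were lower. Over the other fits of *Spp1* the adjusted p ran from 0.0544 to 0.248.

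**Figure D1:**
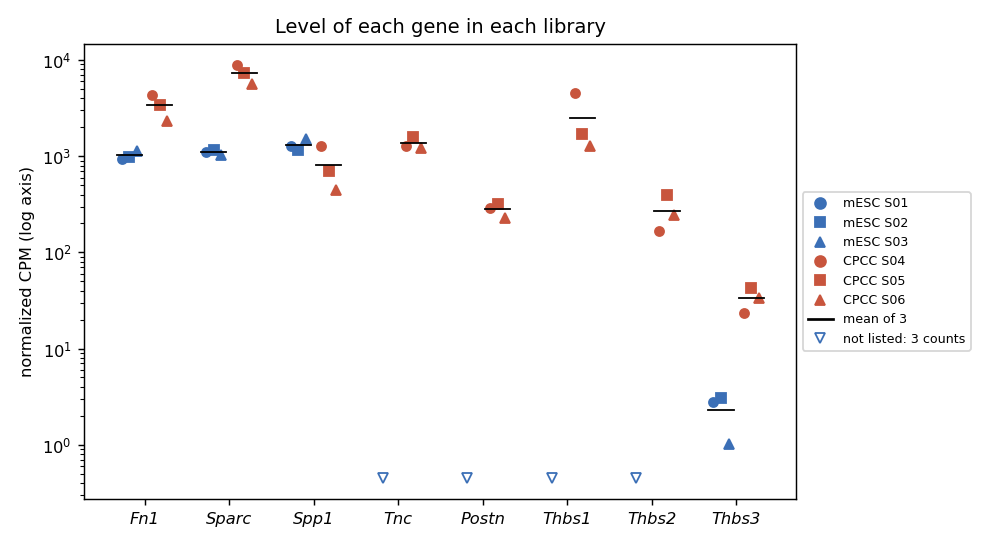
Normalized CPM on a log axis for each of the 8 genes, with 1 point per library (blue for mESCs, red for CPCCs) and a bar at the mean of 3. Open triangles mark genes missing from the mESC table, drawn at the mean level of 3 counts per library (0.448 CPM). *Fn1*, *Sparc* and *Thbs3* do not overlap between the groups, and *Spp1* does.

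*Thbs1* (chromosome 2, 118111876 to 118127134, plus strand) encodes thrombospondin 1, a trimer that binds *Cd36*, *Cd47* and integrins, restrains vessel growth and activates latent TGF-beta. It is missing from the mESC table. In CPCCs it had 45863, 14090 and 11122 counts in S04, S05 and S06, or 4559, 1709 and 1275 CPM. S04 was far above both other libraries, and S05 and S06 lay closer together. The CPCC mean was 2514 ± 1784 CPM (SD, n = 3), at least 5614-fold higher than 3 counts per mESC library. Among the 2518 genes listed for CPCCs alone, this bound ranked 2. The mESC floor is the same for all of them. This rank, like those given below, is thus that of the CPCC mean, not corrected for length. Without S04 the bound was at least 3331-fold, below those of *Tagln* (7375-fold), *Col1a2* (5725-fold) and *Col3a1* (3693-fold).

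*Tnc* (chromosome 4, 63959785 to 64047016, minus strand) encodes tenascin C, a hexamer made in embryonic, healing and remodelling tissue that weakens attachment to fibronectin. It had 12989, 13115 and 10723 counts in CPCCs, or 1291, 1590 and 1229 CPM. The 3 libraries were close, and the coefficient of variation, 14.1%, was the smallest of the 8 genes in CPCCs. The mean was 1370 ± 193 CPM (SD, n = 3), at least 3059-fold above the mESC floor, a bound of rank 6.

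*Postn* (chromosome 3, 54361107 to 54391042, plus strand) encodes periostin, which binds collagen I and fibronectin and is a common marker of activated fibroblasts and of the valve mesenchyme. It had 2929, 2630 and 2005 counts in CPCCs, or 291, 319 and 230 CPM, again with little spread (coefficient of variation 16.3%). Its mean was 280 ± 45.6 CPM (SD, n = 3), at least 625-fold above the floor and rank 24.

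*Thbs2* (chromosome 17, 14665500 to 14694263, minus strand) encodes thrombospondin 2, built as a trimer like thrombospondin 1 but without its sequence for activating latent TGF-beta. It had 1675, 3241 and 2155 counts, or 167, 393 and 247 CPM. Here S04 was the lowest library and S05 the highest, the reverse of the place that S04 held for *Thbs1*. The mean was 269 ± 115 CPM (SD, n = 3), at least 600.3-fold above the floor and rank 25. The bound was 714.5-fold without S04 and 461.6-fold without S05.

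When the genes missing from the mESC table were set to 0 counts there, all 8 genes entered the fit and 7 were called higher, with 36.4% of the 13630 genes tested, and with 3 counts in each mESC library it was again 7, with 34.8%. The 4 calls so added could not fail, since these genes entered through their CPCC counts alone and their mESC value was a constant set by hand. Nothing is read from them, and the bounds above stand in their place. *Spp1* was the gene that did not pass in either fit.

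**Figure D2:**
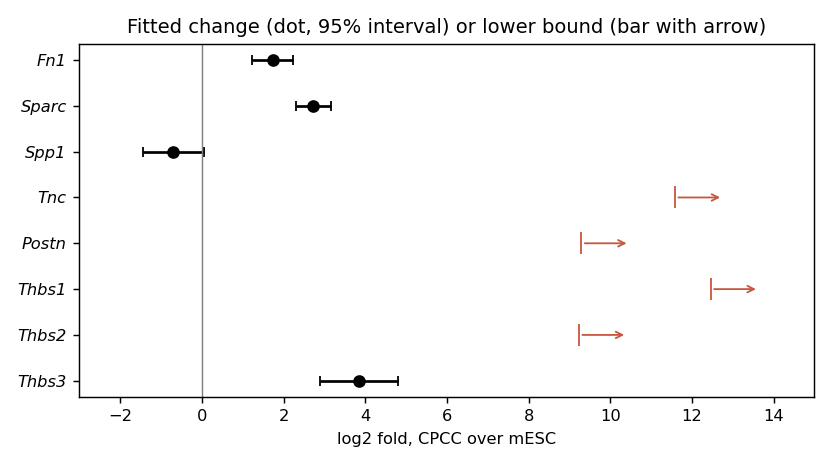
Log2 fold change (CPCC over mESC, horizontal axis) of each gene. Dots with bars give the fitted change and its 95% interval for the 4 genes listed for both cell types, and short bars with arrows give the lower bound for the 4 listed for CPCCs alone. The interval of *Spp1* reaches from -1.45 to 0.05 and includes 0.

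Promoter windows of RefSeq on GRCm38.p6 were at hand for 6 of the 8 genes, all but *Thbs1* and *Fn1*. The 250 bases before the start are printed 5′ to 3′ on the strand of the gene for 3 genes listed for CPCCs alone and for *Spp1*, the gene that did not rise, so that they can be read side by side. They lie at chr3:54360857-54361106 (plus strand) for *Postn*, chr4:64047016-64047265 (minus) for *Tnc*, chr17:14694263-14694512 (minus) for *Thbs2* and chr5:104434861-104435110 (plus) for *Spp1*. Where a gene had more than 1 window, that nearest to the start in the deposited table was taken. Capitals mark matches on either strand to the motifs named next.
Postn: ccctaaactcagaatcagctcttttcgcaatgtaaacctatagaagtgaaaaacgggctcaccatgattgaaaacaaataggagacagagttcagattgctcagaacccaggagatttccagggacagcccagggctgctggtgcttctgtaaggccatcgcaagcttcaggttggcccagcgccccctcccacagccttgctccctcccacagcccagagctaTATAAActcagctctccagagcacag
Tnc: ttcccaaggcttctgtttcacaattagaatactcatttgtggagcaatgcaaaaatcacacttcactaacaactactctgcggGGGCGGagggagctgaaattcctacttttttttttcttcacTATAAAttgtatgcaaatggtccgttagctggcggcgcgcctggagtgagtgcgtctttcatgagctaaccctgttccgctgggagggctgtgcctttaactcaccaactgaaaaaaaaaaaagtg
Thbs2: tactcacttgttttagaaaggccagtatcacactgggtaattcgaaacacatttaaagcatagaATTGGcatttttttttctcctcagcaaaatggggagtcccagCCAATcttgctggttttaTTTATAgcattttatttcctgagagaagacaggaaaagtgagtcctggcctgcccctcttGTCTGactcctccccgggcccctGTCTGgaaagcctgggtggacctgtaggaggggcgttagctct
Spp1: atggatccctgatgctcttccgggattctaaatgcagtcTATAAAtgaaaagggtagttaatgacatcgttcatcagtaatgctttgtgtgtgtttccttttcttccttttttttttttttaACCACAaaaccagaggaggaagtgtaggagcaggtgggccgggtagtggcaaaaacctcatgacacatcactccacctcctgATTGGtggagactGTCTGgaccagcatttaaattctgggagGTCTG

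The motifs searched, on both strands, were the TATA box with the letters TATAAA, the box that reads CCAAT, the GC box with the letters GGGCGG, the site of AP-1 factors written TGANTCA, the site of TEAD factors written GGAATG, the site of RUNX factors written TGTGGT, the SMAD element written CAGAC, the E-box written CACGTG and, by name alone, the CArG box. TATAAA was found in 4 of the 6 windows and in 12.4% of all 32817 windows in the RefSeq table. In *Postn* it lay on the gene strand at positions -26 to -21, counted back from -1 at the base before the start, and 2.63% of all windows hold TATAAA on that strand within the last 50 bases. In *Tnc*, *Thbs2* and *Spp1* it lay farther off, at -126 to -121 in *Tnc* and in *Thbs2* (in the latter on the opposite strand) and at -211 to -206 in *Spp1*. CCAAT was found in 3 of 6 windows (33.8% of all), the SMAD element in 3 (42.2%), GGGCGG in 2 (32.7%) and TGTGGT in 1 (14.0%), that of *Spp1* at -128 to -123. The AP-1 (6.75% of all), TEAD (12.6%), CArG (1.47%) and E-box (6.02%) letters were in none of the 6 windows. A match describes these letters alone, and no factor binding was measured in these libraries.

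The order of the genes by level was taken per length, as normalized CPM per kilobase of merged GENCODE exons, since longer transcripts gather more reads. In CPCCs *Sparc* was highest at 1930 ± 443 CPM per kilobase (SD, n = 3), and its lowest library exceeded every value of the other 7 genes. *Spp1* followed at 495 ± 262, then *Thbs1* at 414 ± 294, *Fn1* at 289 ± 88.4 and *Tnc* at 176 ± 24.9, and the ranges of each of these neighbours overlapped over the 3 libraries. Within a library, *Spp1* exceeded *Thbs1* and *Fn1* exceeded *Tnc* in all 3, while *Thbs1* exceeded *Fn1* in S04 and S06 but not in S05. *Thbs2* at 38.4 ± 16.4 and *Postn* at 32.2 ± 5.24 lay below *Tnc* without overlap, and *Postn* was the higher in S04 alone. *Thbs3* was last at 6.89 ± 2.02. With the longest coding length in place of exon length, *Postn* stood above *Thbs2*, and the other places were kept.

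In mESCs the order differed at its top. *Spp1* stood first at 803 ± 115 CPM per kilobase (SD, n = 3), *Sparc* next at 291 ± 17.2, *Fn1* at 87.3 ± 8.79 and *Thbs3* at 0.476 ± 0.231, with no overlap between neighbours. Thus *Spp1* exceeded *Sparc* per length in all 3 mESC libraries, and *Sparc* exceeded *Spp1* in all 3 CPCC libraries. Among the 15287 genes ranked per kilobase in CPCCs, *Sparc* took ranks 5, 8 and 10 in S04, S05 and S06. In mESCs it took ranks 154, 150 and 159 of 13585 genes. *Spp1* took ranks 44, 50 and 35 in mESCs and 32, 61 and 108 in CPCCs.

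Together the 8 genes held 0.335%, 0.331% and 0.366% of all counts in mESCs (S01 to S03). In CPCCs (S04 to S06) they held 1.84%, 1.51% and 1.17%. Nearly all of the mESC sum came from *Spp1* (34.8% to 41.2% of it), *Sparc* (28.0% to 35.3%) and *Fn1* (28.1% to 30.7%). In CPCCs *Sparc* supplied 42.8% to 49.3% of the sum, *Fn1* 20.3% to 22.2%, *Thbs1* 11.0% to 21.7%, *Tnc* 6.16% to 10.8% and *Spp1* 3.93% to 6.15%. These shares are of read counts and were not corrected for length.

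**Figure D3:**
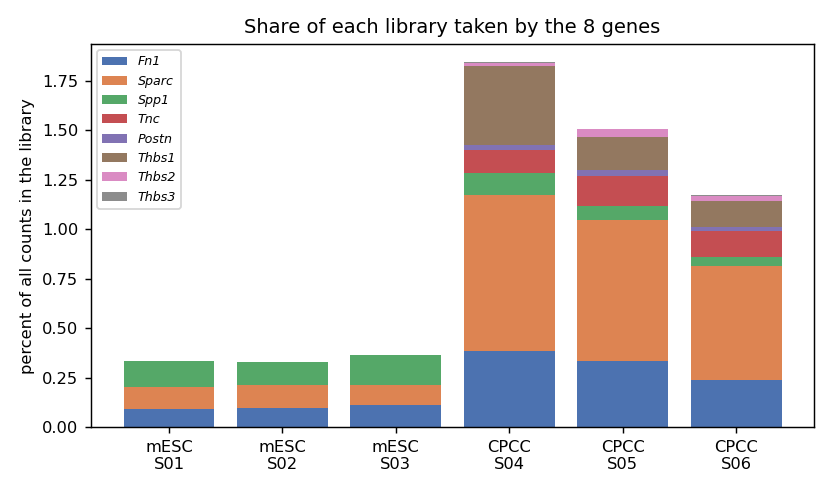
Percent of all counts in each library (vertical axis) taken by the 8 genes, stacked by gene, for the 3 mESC and the 3 CPCC libraries. The stacks reach 0.331% to 0.366% in mESCs and 1.17% to 1.84% in CPCCs. *Spp1* makes up 34.8% to 41.2% of the stack in mESCs and 3.93% to 6.15% in CPCCs. As a share of all counts its slice is alike in S02 (0.115%) and S04 (0.113%).

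The CPCC libraries did not vary alike for all members. The ratio of the highest to the lowest CPCC library was 3.58 for *Thbs1*, larger than for 98.5% of the 6203 genes with a CPCC mean of at least 33.5 CPM, whose median ratio was 1.41. It was 2.89 for *Spp1* (above 96.2% of those genes) and 2.36 for *Thbs2* (above 91.9%). *Fn1* at 1.89 and *Sparc* at 1.60 stood above 82.0% and 67.1%, and *Postn* at 1.39 and *Tnc* at 1.29 stood above 47.1% and 35.2%. *Thbs1*, *Spp1* and *Thbs2* were therefore among the genes that varied most from culture to culture, and *Tnc* and *Postn* were near the middle of all genes.

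S04 stood apart most for *Thbs1*, and other libraries stood apart for other genes. S06 was at 0.448 of the mean of S04 and S05 for *Spp1*, 0.592 for *Fn1* and 0.688 for *Sparc*. S05 was at 1.90 times the mean of S04 and S06 for *Thbs2*. The CPM of S04 over the mean of S05 and S06 was 3.06 for *Thbs1*, 2.23 for *Spp1*, 1.52 for *Fn1* and 1.38 for *Sparc*. It was 1.06 for *Postn* and 0.916 for *Tnc*, and was 0.608 for *Thbs3* and 0.520 for *Thbs2*. Over the 6203 genes the median of this ratio was 1.06, and 6.01% of them reached 2. Within a library the 3 thrombospondins were thus in different proportion: *Thbs1* counts were 27.4 times those of *Thbs2* in S04, but 4.35 and 5.16 times in S05 and S06. Counts of *Tnc* over *Postn* were steadier, at 4.43, 4.99 and 5.35.

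**Figure D4:**
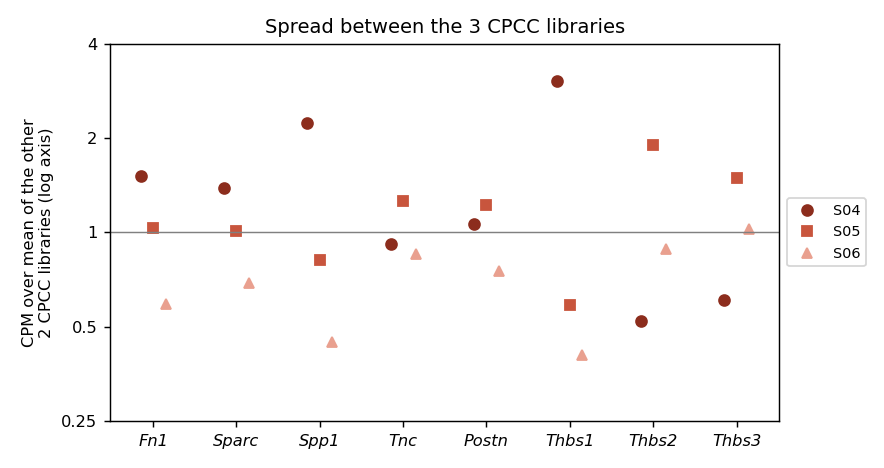
CPM of each CPCC library over the mean of the other 2 (vertical log axis), for each gene. S04 is highest for *Thbs1* (3.06) and *Spp1* (2.23), lowest for *Thbs2* (0.520) and *Thbs3* (0.608), and near 1 for *Tnc* (0.916) and *Postn* (1.06). S06 is lowest for *Spp1* (0.448), *Fn1* (0.592) and *Sparc* (0.688).

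Other markers moved with S04 as well. The 7 macrophage markers summed to 237, 80.2 and 38.8 per 1000000 in S04, S05 and S06, and to between 10.9 and 15.4 in mESCs. Of these 7, 6 are listed for CPCCs alone and none was at 0 there, with *Lyz2* at 125, 33.1 and 14.0 CPM and *Csf1r* at 55.8, 19.2 and 4.93 CPM. *Cd68* was the 1 marker tested and was higher in CPCCs, a call that was lost without S04. The sum thus had the order of *Spp1* and *Thbs1* over the 3 libraries, which is also the order of *Fn1* and *Sparc*, and its part in these levels was not tested. The 6 bone markers, the other usual source of *Spp1*, summed to between 124 and 152 per 1000000 in mESCs, where *Alpl* made up most of the sum, and to between 21.4 and 37.4 in CPCCs. Of that list *Runx2* and *Ibsp* are listed for CPCCs alone, *Bglap* for mESCs alone and *Sp7* and *Dmp1* for neither.

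Markers of further cell types were summed in the same way. The 8 endoderm markers, parietal endoderm being a rich source of *Sparc* and of basement membrane, summed to between 122 and 130 per 1000000 in mESCs and to 2672, 2139 and 1936 in S04, S05 and S06. Of these, 6 of the 7 tested were higher in CPCCs, with *Col4a1* and *Lamb1* leading, *Sox7* did not pass, and 1 was too low to test. *Col4a1* and *Lamb1* are also made by mesenchyme and smooth muscle. The 6 endothelial markers summed to between 91.4 and 101 per 1000000 in mESCs and between 36.0 and 53.2 in CPCCs, but *Pecam1* alone, at 91.1 and 4.44 CPM, accounts for that fall. *Cdh5*, *Kdr*, *Flt1* and *Emcn* are listed for CPCCs alone, with *Flt1* at least 60.7-fold higher, and *Tek* did not pass. *Acta2* and *Tagln*, the leading smooth muscle markers, had 4636 ± 1634 and 3662 ± 892 CPM in CPCCs (SD, n = 3), and S04 was the highest library for both. The part of each of these cell types in the levels of the 8 genes was not tested.

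The genes that work with these proteins were read from 5 lists. Beside their counts stand 31.7% higher and 29.7% lower over all 12471 genes tested. Of all 16279 genes, 2518 are listed for CPCCs alone. The lists were chosen with earlier results of these data known, so their counts describe them and are no test. Of 17 paralogs and family members, 4 were tested, of which 3 were higher and 1 was lower, 6 are listed for CPCCs alone and 7 for neither. *Fstl1*, a secreted relative of *Sparc*, rose from 129 ± 5.52 to 3089 ± 574 CPM (SD, n = 3 each; log2 fold change 4.59, standard error 0.19, adjusted p = 1.28e-06 by edgeR). *Tgfbi*, the relative of *Postn*, rose by 2.11 on the log2 scale (standard error 0.35) and *Spock1* by 2.47 (standard error 0.86). *Spock1* in S04 had 1.39 CPM, below all 3 mESC libraries (1.76 to 3.24 CPM), and its call was lost without S01, S02, S03 or S05 (adjusted p by edgeR from 0.0597 to 0.177, and a log2 change of 1.45 without S05). *Smoc1*, another relative of *Sparc*, fell from 39.0 to 4.95 CPM (log2 fold change -2.98, standard error 0.61, and -3.95 without S06). *Smoc2* and *Spock2*, listed for CPCCs alone, were at least 37.2-fold and 6.36-fold higher, and the bound of *Spock2* was 3.40-fold without S06. *Thbs4* and *Sparcl1* are also listed for CPCCs alone, and *Comp*, *Tnr*, *Tnn* and *Tnxb* for neither.

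Of 23 cell surface receptors of these proteins, 15 were tested, of which 14 were higher, 0 were lower and *Sdc4* did not pass. The median log2 fold change of the 15 was 3.63, against 0.03 over all genes tested. *Itgb1*, the integrin subunit shared by the main fibronectin and collagen receptors, rose from 112 ± 39.4 to 2595 ± 1088 CPM (SD, n = 3 each; log2 fold change 4.53, standard error 0.37, adjusted p = 1.41e-05 by edgeR). *Itga4*, which with *Itgb1* binds fibronectin and osteopontin, rose by 5.01 (standard error 0.55, and 5.81 without S03), and the syndecan *Sdc3* by 4.76 (standard error 0.28). *Cd44*, a receptor of osteopontin and hyaluronan, is listed for CPCCs alone at 607, 494 and 309 CPM, at least 1049-fold above the floor. *Itga8* was at least 40.8-fold higher. The thrombospondin receptor *Cd47* was among the 14 that rose, and *Cd36* among the 8 listed for CPCCs alone. Without S04 all 15 tested were higher.

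Of 15 matrix partners and assembly factors, 10 were tested, 9 were higher, 0 were lower and *Fbln1* did not pass, and 5 are listed for CPCCs alone. The median log2 fold change was 6.01, the largest of the 5 lists. *Col1a1* rose from 0.554 to 3049 CPM (log2 fold change 12.40, standard error 0.40, adjusted p = 7.86e-07 by edgeR), *Col5a2* by 10.22 (standard error 0.67, and 13.09 without S03, which held most of its few mESC reads) and the fibrillin *Fbn1* by 8.04 (standard error 0.33). The mESC mean of *Col1a1* lay near the floor of 0.448 CPM. *Col1a2* and *Col3a1*, fibrillar collagens like *Col1a1*, were at least 5302-fold and 3729-fold higher. *Lox*, the enzyme that cross-links collagen, and *Dcn* are listed for CPCCs alone, and *Bmp1*, the protease that activates it, was among the 9 that rose. Without S04 all 10 tested were higher.

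Of 16 genes of the TGF-beta axis, 15 were tested, 10 were higher, 1 was lower and 4 did not pass (*Ltbp4*, *Smad2*, *Smad4* and *Smad7*), with a median log2 fold change of 2.15. The ligand *Tgfb2* rose by 8.73 on the log2 scale (standard error 0.50, adjusted p = 2.86e-06 by edgeR) and its receptor *Tgfbr2* by 5.70 (standard error 0.58). Their mESC means were low, at 1.15 and 1.86 CPM, against a floor of 0.448 CPM. Over S04, S05 and S06, *Tgfb2* had 770, 392 and 315 CPM. *Thbs1* had the same order, as did *Fn1*, *Sparc*, *Spp1* and *Tgfbr2*, and a link between them was not tested. The co-receptor *Tgfbr3* fell from 16.9 to 4.18 CPM (standard error of the log2 change 0.42, adjusted p = 0.00298 by edgeR). *Tgfb3*, listed for CPCCs alone, was at least 185-fold higher.

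Of 12 proteases that cut these proteins, 6 were tested, 5 were higher, 0 were lower and *Ctsb* did not pass, while 5 are listed for CPCCs alone and *Mmp7* for neither. The median log2 fold change was 3.84. The gelatinase *Mmp2* rose from 12.8 to 1579 CPM (log2 fold change 6.95, standard error 0.32, adjusted p = 1.35e-06 by edgeR), and its membrane-bound activator *Mmp14* rose by 5.95 (standard error 0.30). The plasminogen activator *Plat* rose by 7.48 (standard error 0.29), from an mESC mean of 0.646 CPM, near the floor of 0.448 CPM. *Adamts1*, an enzyme that cuts versican and thrombospondins, was at least 129-fold higher, and *Mmp9* at least 20.0-fold.

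**Figure D5:**
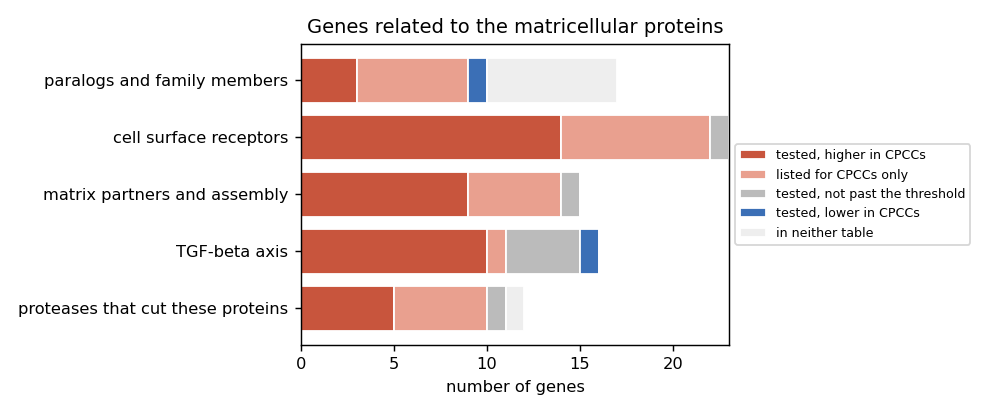
Number of genes (horizontal axis) of each of the 5 lists that were higher, lower or not past the threshold in CPCCs by edgeR, listed for CPCCs alone, or listed for neither cell type. The 1 gene lower among paralogs is *Smoc1* and the 1 lower in the TGF-beta axis is *Tgfbr3*. Of all genes tested, 31.7% were higher and 29.7% were lower.

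For each of the 4 genes listed for both cell types, the tested genes nearest in pattern were those with the smallest root mean square difference in log2 CPM over the 6 libraries, each gene centred on its own mean. For *Fn1* these were *Calu* (0.053), *Tmem184b* (0.070) and *4933407K13Rik* (0.104). For *Sparc* they were *Carhsp1* (0.066), *Crip2* (0.076) and *Peak1* (0.089). For *Spp1* they were *Pvr* (0.099), *Arpc1b* (0.105) and *Ttc39b* (0.131). For *Thbs3*, whose low counts vary more, they were *Adamts15* (0.211), *Angpt2* (0.259) and *Hspa12a* (0.273). The 6 points share their libraries and depths, and the likeness is a description with no test.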

How the data were processed

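RNA-seq of polyA+ cDNA from 3 mESC and 3 CPCC samples was used. The authors deposited estimated counts (expected counts) of reads per gene in 1 table per cell type, not normalized, and 17.9% to 21.5% of the values of a library were not whole. The submitters' processing notes name STAR 2.7 and mm10, and the counter is not given in the sources used here. Replicate numbers are absent from the columns, which leaves the parent clone of each library unknown. The labels call the samples replicates of each cell type.

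Counts were rounded. Library sizes were taken over the 13001 genes in both tables, and 12471 passed filterByExpr. The test was edgeR 4.0.16 (R 4.3.3; quasi-likelihood, TMM, Benjamini-Hochberg, threshold 0.05) with no covariate, and DESeq2 1.42.0 was an alternative. Standard errors come from the F statistic. The scripts were tested on simulated data. Floors of 3 counts cover counting error only.

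The 8 genes, lists and tests were chosen with earlier results of these data known. Of each list, up to 3 genes that rose most and up to 3 that fell most among those passing, and up to 2 with the largest bounds, are named with values, and for marker lists at most 2 with the highest CPM. The values of 1 gene that this rule names are not reported here. Genes named beyond these serve to account for a list and were chosen after their values were seen. Lengths came from GENCODE M21 and promoter windows from RefSeq (GRCm38.p6). Other settings tried were upper-quartile scaling, no TMM, whole-table library sizes, no filter, at least 10 counts in every library, missing genes at 0 or 3 counts, and each library left out. Coding length, the lists without S04, and the named genes without each library, were added after seeing the data.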

Additional observations from a re-analysis of the deposited data

How the results depend on the processing

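The count of members called was 3 in the main comparison and 7 when missing genes were set to 0 or to 3 counts, where the 4 added calls were fixed by the constant set for mESCs and support nothing. With missing genes at 0 counts the median log2 fold change of all genes was 0.17, against 0.03. No direction of a member reversed. With 1 library left out, the log2 fold change ranged from 1.51 to 1.95 for *Fn1*, from 2.57 to 2.89 for *Sparc*, from 3.49 to 4.13 for *Thbs3* and from -1.18 to -0.40 for *Spp1*, which passed the test without S04 alone. The bound of *Thbs1* was 5614-fold, and 3331-fold without S04. Requiring 10 counts in every library left *Thbs3* untested. Over all settings between 6536 and 9011 genes were called, against 7656. By coding length *Thbs2* took place 7 and *Postn* place 6 in CPCCs. No paired analysis was possible because the columns carry no replicate numbers. Depth limits *Thbs3* in mESCs most, with 7 to 21 counts per library, and the folds of the 4 genes missing there, which are bounds.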
